A study of Mus musculus with 12 samples.

Results

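The proteasome is the barrel-shaped protease that degrades ubiquitin-tagged proteins. Its 20S core is built of 2 outer alpha rings and 2 inner beta rings, and 3 beta subunits carry the active sites. In most cells these are Psmb6 (beta 1), Psmb7 (beta 2) and Psmb5 (beta 5). Interferon gamma, and the resting state of many leukocytes, bring in the alternative subunits Psmb9, Psmb10 and Psmb8 at the same positions, which gives the immunoproteasome, a form known for trimming peptides for MHC class I. The 19S cap recognises and unfolds substrates through 6 ATPases (Psmc1 to Psmc6) and the non-ATPases (Psmd genes), and the PA28 activators (Psme1, Psme2, Psme3) and PA200 (Psme4) can take its place.

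All genes whose names begin with Psma to Psmg and a digit were taken from the deposited expression table, with names marked as pseudogenes left out. This gave 50 of 54146 genes, and 4 pseudogenes were left out. The 48 members with at least 1 TPM (each gene's length-corrected share of a library's transcripts, scaled to a total of 1000000) in at least 3 libraries were tested together with the other genes that passed this filter, 13002 in all. Psma8, the alpha subunit of the testis, and Psmb11, the beta subunit of the thymic cortex, did not pass. Psmb11 was listed at 0 in all 12 libraries, and Psma8 was at 1.79 TPM in replicate 3 of the dormant KO group and at 0 in the other libraries. One member, Psmc3ip, is not a proteasome subunit but a partner protein of meiotic recombination that shares the stem of the name.

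The libraries came from D2A1 cells, a mouse mammary carcinoma line, that had been given a doxycycline-inducible H2B-GFP reporter and the membrane dye CellVue Claret, injected through the tail vein and sorted from the lungs as 50-cell aliquots. Cells that kept the dye were the dormant group and cells that had diluted it were the growing group, so the state was set by the sort and not by a treatment. The hosts were female, 6 to 8 weeks old, and either labelled WT or Tgfbr2 KO. The KO hosts carried floxed Tgfbr2 and Cre from the Lysozyme 2 promoter, which removes the receptor from myeloid cells, so the deletion is a trait of the host and not of the injected cells. Where the labels say WT, the study's methods also name floxed Tgfbr2 mice as controls. The collection is placed 12 days after injection in the RNA sequencing methods, 12 to 14 days in the sorting methods and 14 days in the main text. There were 3 libraries in each of 4 groups, named by state (dormant or growing) and by host (WT or KO). The WT libraries all carried 1 library batch number and the KO libraries another, so host and batch cannot be told apart, while each comparison of dormant with growing cells lies within 1 batch.

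Tgfbr2, the gene deleted in the hosts, was at 0.14 to 11.1 TPM in the dormant WT libraries and 2.19 to 11.5 TPM in the dormant KO libraries, which does not check the host labels, since the injected cells carry no deletion and the signal of host myeloid cells differed between the groups, as given below. Spp1 and Akr1c18, which were abundant in the D2A1 cells of the other 3 groups (28980 to 39951 TPM and 1309 to 2580 TPM), were at 1236 to 1509 TPM and 11.6 to 22.9 TPM in the dormant KO libraries, so this group stood apart from the line it was labelled as in both genes. Ibsp, the third gene of the D2A1 list, divided the libraries by state instead, with 46.2 to 57.3 TPM in growing WT and 40.3 to 76.1 TPM in growing KO, at most 4.47 TPM in dormant KO, and 0 in all 3 dormant WT libraries. Of the 5 epithelial genes, Krt8 was lower in dormant KO than in dormant WT (52.1 to 106 TPM against 183 to 381 TPM, called by limma as described below), while Krt7 was listed at 0 in both WT groups and at 29.6 to 61.5 TPM in dormant KO, and Epcam was called higher at levels of at most 5.34 TPM. Krt18 (159 to 249 TPM in dormant KO) and Cdh1 (at most 1.88 TPM in any library) were not called. The 8 alveolar type 2 genes summed to 40072 to 42411 TPM in the dormant KO libraries to 457 to 465 TPM in growing KO and to at most 141 TPM in the WT libraries, with 7 of the 8 at 1 TPM or more in all 3 libraries. The 8 leukocyte genes summed to 753 to 1049 TPM in the dormant WT libraries and 2246 to 2585 TPM in the dormant KO libraries, with 13.4 to 44.8 TPM (WT) and 117 to 135 TPM (KO) in growing cells. The T and NK cell genes reached 284 to 410 TPM in dormant KO and at most 26.5 elsewhere, and the 8 endothelial genes 554 to 702 TPM against at most 79.8. The 11 macrophage genes summed to 1741 to 2142 TPM in dormant WT and 3581 to 3810 TPM in dormant KO, against 49.7 to 85.8 TPM (WT) and 201 to 235 TPM (KO) in growing cells. The 7 neutrophil genes in the table summed to 4062 to 4367 TPM in dormant KO, 326 to 886 TPM in dormant WT and at most 109 TPM in growing cells. In dormant KO the 5 B cell genes reached 162 to 184 TPM and the 6 mesothelial genes 706 to 1192 TPM, against at most 68.5 and 90.1 TPM elsewhere. Markers of other cells therefore moved in all the comparisons below, including those without dormant KO libraries, and their part in the proteasome results was not tested. In 50-cell bulk libraries, fewer cells of a type and less RNA per cell cannot be told apart.

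Proteasome transcripts were abundant in all 12 libraries and were lower in the dormant cells. The 50 genes summed to 14650, 14050 and 14720 TPM in dormant cells of WT hosts and to 11720, 11960 and 11720 TPM in those of KO hosts. Growing cells reached 20930, 21420 and 21050 TPM in WT hosts and 23880, 24490 and 23440 TPM in KO hosts. The 4 groups did not overlap. The group means were 14472 ± 366, 11801 ± 134, 21135 ± 257 and 23934 ± 527 TPM (SD, n = 3), with no test made on the sum. When each library was rescaled by the median ratio of its genes to a common reference, the means became 12483, 14581, 17243 and 19558 TPM, so both dormant groups stayed below both growing groups but the order of the dormant groups turned. TPM is a share of a fixed total, and the 5 erythroid genes alone came to 50831 to 56264 TPM in the dormant KO libraries and to at most 13031 TPM in the others.

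The most abundant members, by the mean TPM over the 12 libraries, were Psmb6 (1768), the alpha-ring gene Psma7 (1661) and the activator gene Psme2 (1455). Among the lowest were the lid gene Psmd13 (20.4), the inhibitor Psmf1 (20.2), and the activators Psme3 (9.91) and Psme4 (8.67). Replicates of the growing groups were close over the members (mean pairwise Pearson's r of 0.989 in growing WT and 0.985 in growing KO on the log2 scale, a description across genes, which are not independent replicates), those of dormant KO less so (0.927) and those of dormant WT least (0.708). The median SD of a member on the log2(TPM + 1) scale was 0.583 in the dormant WT and 0.223 in the dormant KO libraries, and 0.123 and 0.168 in the growing cells of WT and KO hosts. In dormant WT, 4 of the 48 tested members were listed at 0 in a library, among them Psmf1 in 2 of 3. Replicate 2 of that group had Psmd1 at 0.05 TPM and Psmd2 at 0.02 TPM while the other 2 libraries had 92.8 and 201 TPM, and 102 and 90.5 TPM.

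**Figure D1:**
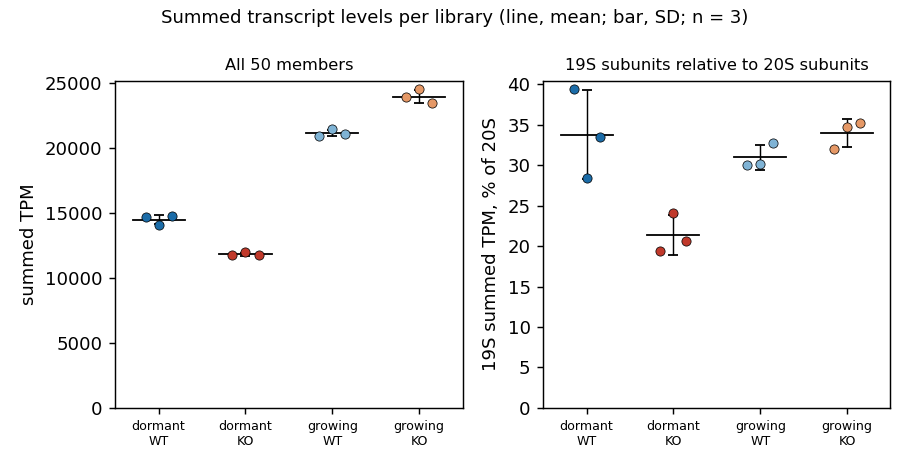
Left, summed TPM of the 50 members in each library; right, summed TPM of the 19S ATPases and non-ATPases as a percent of the summed TPM of the 20S ring subunits. Points are libraries, lines means and bars SD (n = 3). On the left the 2 dormant groups lie below the 2 growing groups; on the right the 3 dormant KO libraries (19.4 to 24.1%) lie below the other 9 (28.4 to 39.4%).

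The first question was how the 3 constitutive catalytic subunits stood against the 3 that replace them. Psmb5, which carries the chymotrypsin-like site, was at 230.1, 349.8 and 320 TPM in dormant cells of WT hosts, against 148, 121 and 132 TPM in those of KO hosts. Growing cells had 475, 442 and 372 TPM in WT hosts and 467, 475 and 509 TPM in KO hosts. Psmb8, its immunoproteasome counterpart, was at 365, 163 and 414 TPM in dormant cells of WT hosts, against 290.2, 396 and 342 TPM in those of KO hosts. The growing libraries held 614, 637 and 540.2 TPM (WT) and 736, 909 and 823 TPM (KO). All 3 dormant KO libraries were below every other library for Psmb5. For Psmb8 the dormant groups overlapped with each other and lay below all 6 growing libraries.

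Psmb7, the trypsin-like subunit, was at 382, 297 and 380.3 TPM in dormant cells of WT hosts, against 180.0, 144 and 177 TPM in those of KO hosts. Growing cells had 494, 473 and 506 TPM in WT hosts and 573, 549 and 614 TPM in KO hosts. Psmb10, which takes its place, was at 155, 172 and 73.0 TPM in dormant cells of WT hosts, against 277, 307 and 282 TPM in those of KO hosts. The growing libraries held 377, 342 and 329 TPM (WT) and 391, 481 and 393 TPM (KO). Here the 2 subunits of a position were ordered oppositely in the dormant groups: the dormant KO libraries were the lowest of all for Psmb7, while for Psmb10 the dormant WT libraries were the lowest of all.

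Psmb6, the caspase-like subunit, was the most abundant of the 6, at 1241, 1672 and 1352 TPM in dormant cells of WT hosts, against 1167, 1187 and 1160.0 TPM in those of KO hosts. Growing cells had 2111, 2317 and 2169 TPM in WT hosts and 2453, 2281 and 2102 TPM in KO hosts. Psmb9, its counterpart, was the least abundant, at 40.0, 105 and 102 TPM in dormant cells of WT hosts, against 128, 134 and 138 TPM in those of KO hosts. The growing libraries held 60.3, 63.0 and 85.5 TPM (WT) and 134, 104 and 131 TPM (KO). For Psmb9 the dormant KO libraries lay above both WT groups and overlapped with growing KO.

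**Figure D2:**
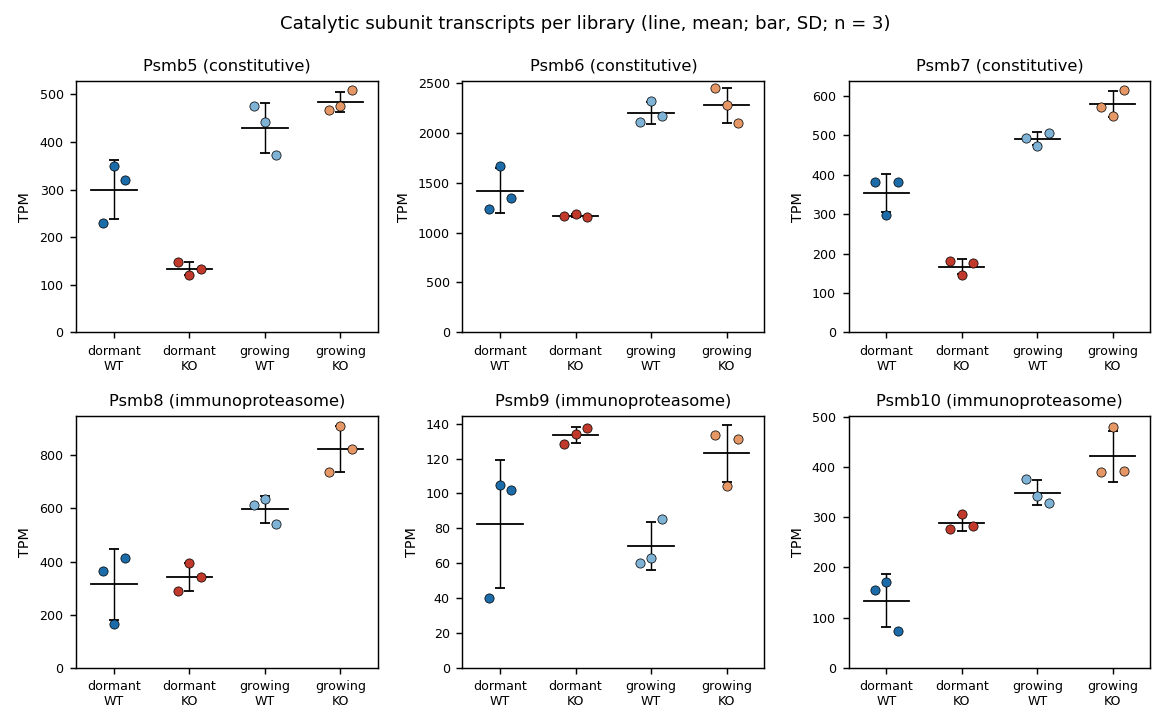
TPM of the 6 catalytic subunits in each library of the 4 groups, constitutive subunits above and immunoproteasome subunits below; points are libraries, lines means and bars SD (n = 3), and each panel has its own linear axis from 0. Psmb5 and Psmb7 are lowest in the 3 dormant KO libraries (121 to 148 and 144 to 180.0 TPM), and Psmb10 is lowest in the 3 dormant WT libraries (73.0 to 172 TPM).

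The share of each pair's TPM that came from the immunoproteasome subunit does not change when a library is multiplied by any factor. For Psmb8 with Psmb5 it was 61.3, 31.8 and 56.4% in dormant WT and 66.2, 76.6 and 72.1% in dormant KO, against 56.4 to 59.2% in growing WT and 61.2 to 65.7% in growing KO. For Psmb10 with Psmb7 it was 28.9, 36.7 and 16.1% in dormant WT and 60.6, 68.0 and 61.5% in dormant KO, against 39.4 to 43.3% in growing WT and 39.0 to 46.7% in growing KO. For Psmb9 with Psmb6 it was 3.12, 5.90 and 7.02% in dormant WT and 9.90, 10.2 and 10.6% in dormant KO, against 2.65 to 3.79% in growing WT and 4.37 to 5.87% in growing KO. In each of the 3 pairs all dormant KO libraries had a higher share than all 9 others.

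With the 3 pairs summed, the immunoproteasome subunits made up 23.2, 16.0 and 22.3% of the catalytic TPM in the dormant WT libraries and 31.8, 36.6 and 34.2% in the dormant KO libraries. In growing cells they made up 25.5, 24.4 and 23.8% (WT hosts) and 26.5, 31.1 and 29.5% (KO hosts). The 4 groups did not overlap in this share, which was lowest in dormant WT and highest in dormant KO. No test was made on the shares. The ratio behind them moved through either partner: in the dormant KO libraries Psmb10 stood at 1.54 to 2.13 times Psmb7, and in the dormant WT libraries at 0.192 to 0.579 times. The leukocyte sum also differed between the groups (2246 to 2585 TPM in dormant KO, 753 to 1049 TPM in dormant WT, 117 to 135 TPM in growing KO and 13.4 to 44.8 TPM in growing WT), and its part in the shares was not tested.

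**Figure D3:**
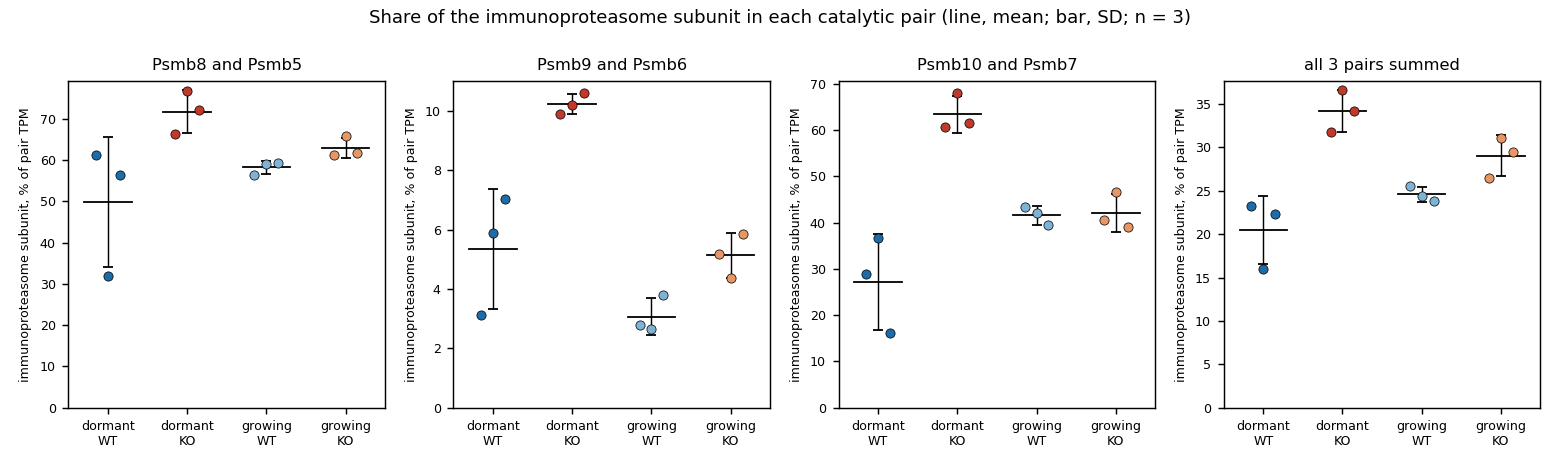
Percent of the pair's TPM contributed by the immunoproteasome subunit in each library, for the 3 catalytic positions and for their sum; points are libraries, lines means and bars SD (n = 3). The dormant KO libraries are the highest in every panel, from 66.2 to 76.6% for Psmb8, 9.90 to 10.6% for Psmb9 and 60.6 to 68.0% for Psmb10.

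Promoter windows of the catalytic subunits Psmb8, Psmb5, Psmb6 and Psmb10 and of the activator gene Psme1 are shown next. RefSeq's table for GRCm38.p6 held windows from 250 bases before to 50 after the start for 42 of the 50 members, and it was searched on both strands for GAAA, any 2 bases and GAAA (the core of the interferon-stimulated response element), TTCNNNGAA (the core of the gamma-activated sequence) and TGACNNNGC (the core of the antioxidant response element, bound by the Nfe2l1 and Nfe2l2 proteins known for driving proteasome genes). In the lines that follow, capitals mark the match, positions count from 1 at the start site with negative values upstream, and each line reads 5′ to 3′ on the gene's strand.
Psmb8, chr17:34198088-34198117, plus strand, positions -107 to -78: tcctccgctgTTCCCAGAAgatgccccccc
Psme1, chr14:55578493-55578522, plus strand, positions -1 to 29: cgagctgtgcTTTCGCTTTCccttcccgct
Psmb5, chr14:54618023-54618202, minus strand, positions -207 to -28: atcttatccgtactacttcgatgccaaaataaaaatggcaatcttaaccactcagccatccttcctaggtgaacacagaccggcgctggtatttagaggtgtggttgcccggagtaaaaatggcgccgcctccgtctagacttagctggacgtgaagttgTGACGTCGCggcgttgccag
Psmb6, chr11:70525177-70525356, plus strand, positions -180 to -1: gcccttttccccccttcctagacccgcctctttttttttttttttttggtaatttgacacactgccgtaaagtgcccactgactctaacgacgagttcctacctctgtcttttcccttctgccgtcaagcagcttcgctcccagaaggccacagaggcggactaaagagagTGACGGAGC
Psmb10, chr8:105938445-105938624, minus strand, positions -232 to -53: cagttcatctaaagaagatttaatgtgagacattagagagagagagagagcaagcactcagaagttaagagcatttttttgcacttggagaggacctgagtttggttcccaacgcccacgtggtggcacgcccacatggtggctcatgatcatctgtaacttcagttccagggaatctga

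Psmb8 held TTCNNNGAA at positions -97 to -89, a motif found in 8.30% of the 32851 promoters of the table, and Psme1 held the interferon-stimulated core on the opposite strand at positions 10 to 19, a motif found in 3.44%. The 30 printed bases of Psmb8 and of Psme1 lie within exons of longer GENCODE M21 transcripts, and the other 3 windows lie in no annotated exon. Psmb5 held TGACNNNGC at positions -47 to -39 and Psmb6 at positions -9 to -1, a motif found in 12.4% of promoters. None of the 3 motifs was in the windows of Psmb9 or Psmb10, which says only that these letters are not there, and Psmb7 had no entry in the table. Over the 42 members with a window, the interferon-stimulated core was in 5 (Psmb3, Psmd4, Psmd9, Psmg4 and Psme1). TTCNNNGAA was in 3 (Psmb8, Psmd2 and Psmg1), and TGACNNNGC in 6 (Psmb5, Psmb6, Psmc6, Psmd12, Psmd9 and Psme4). The matches were thus spread over members of several roles. The start of Psmb9 lies 226 bases from that of Tap1, the peptide transporter gene, on the opposite strand.

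Differences between groups were fitted with limma over all 12 libraries on the log2(TPM + 1) scale, which understates the change of low genes, and a gene was called at an adjusted p of at most 0.05 and a difference of at least 1. Dormant cells of KO hosts were compared first with dormant cells of WT hosts, to ask how the host's myeloid receptor bore on the dormant state. Of the 48 members 3 rose (6.25%) and 9 fell (18.8%), beside 12.9% of all genes that rose and 9.39% that fell. The members' median difference was -0.18 and that of all genes 0.17. Median-ratio scaling moved the median of all genes to 0.50 and that of the members to 0.33, and quantile normalization moved them to -0.14 and -0.15, so the sign of the members' median depends on the scaling while it stayed below that of all genes. With median-ratio scaling 8 members rose (16.7%) and 3 fell (6.25%), beside 17.6% and 6.18% of all genes, so the members' shares were then near those of all genes in both directions.

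Among the catalytic subunits, Psmb5 fell by 1.14 ± 0.19 (SE; adjusted p = 0.00104) and Psmb7 fell by 1.07 ± 0.16 (adjusted p = 0.000433), which is 2.20 and 2.10 times lower on the log2(TPM + 1) scale. Psmb6 differed by -0.27 ± 0.11 (adjusted p = 0.0904) and was not called. Psmb10 rose by 1.20 ± 0.28 (adjusted p = 0.008), or 2.30-fold. Psmb9 differed by 0.81 ± 0.36 (adjusted p = 0.13) and Psmb8 by 0.22 ± 0.29 (adjusted p = 0.635), neither called. The calls of Psmb5 and Psmb7 were lost with median-ratio scaling (-0.62, adjusted p = 0.0706, and -0.56, adjusted p = 0.0325), where Psmb9 was called (1.33, adjusted p = 0.0279). That of Psmb7 was also lost without replicate 2 of dormant KO (-0.97, below the difference of 1), and Psmb9 was called without replicate 2 of dormant WT (1.05, adjusted p = 0.0489). The call of Psmb10 was lost without replicate 3 of dormant WT (0.82, adjusted p = 0.00379, below the difference of 1) and in a fit of only these 2 groups (adjusted p = 0.093).

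Of the other 20S genes, the beta-ring subunit Psmb1 fell by 1.11 ± 0.12 (adjusted p = 6.12e-05): it was at 594, 666 and 684 TPM in dormant cells of WT hosts, against 309, 309.5 and 283 TPM in those of KO hosts. With median-ratio scaling its difference was -0.59 (adjusted p = 0.0123), under the difference of 1. None of the 7 alpha-ring genes was called, and their differences ran from -0.63 for Psma2 to 0.03 for Psma6, with a median of -0.20 that turned to 0.32 under median-ratio scaling. The 4 chaperones that assemble the 20S core (Psmg1 to Psmg4) had differences of 0.62 to 1.80, and none was called. Those values rest on scattered dormant WT libraries: Psmg3 was at 0, 59.3 and 83.9 TPM and Psmg1 at 79.6, 2.28 and 135 TPM.

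Of the 11 non-ATPases of the 19S cap 2 fell. Psmd4, the ubiquitin receptor Rpn10, fell by 1.45 ± 0.16 (adjusted p = 6.18e-05): it was at 369, 321 and 327 TPM in dormant cells of WT hosts, against 134, 133 and 106 TPM in those of KO hosts. Psmd12, a lid subunit, fell by 1.60 ± 0.23 (adjusted p = 0.0004): it was at 220.5, 218 and 276 TPM in dormant cells of WT hosts, against 69.2, 95.2 and 70.9 TPM in those of KO hosts. Neither gene's groups overlapped. With median-ratio scaling Psmd4 lost its call (-0.93, adjusted p = 0.00102, under the difference of 1) and Psmd12 kept it.

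The base chaperones Psmd5 and Psmd10, which help assemble the ATPase ring, fell by 2.57 ± 0.29 (adjusted p = 7.49e-05) and 1.90 ± 0.21 (adjusted p = 6.52e-05). Psmd5 was at 154, 129 and 118 TPM in dormant cells of WT hosts, against 16.7, 30.1 and 20.1 TPM in those of KO hosts, and Psmd10 was at 259.9, 394 and 327 TPM against 77.5, 83.9 and 97.7 TPM. Both genes were at levels near those of dormant WT in the growing groups, Psmd5 at 99.1 to 152 TPM and Psmd10 at 219 to 275 TPM, so the dormant KO libraries stood apart from all 9 others. The third base chaperone, Psmd9, differed by -0.16 (adjusted p = 0.854).

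All 6 ATPases had differences below 0, from -1.07 to -0.23, and a median of -0.92. Psmc5 was called (-1.07 ± 0.25, adjusted p = 0.00778), and Psmc1 (-0.96), Psmc2 (-0.97) and Psmc6 (-0.87) passed the adjusted p but not the difference. Under median-ratio scaling the median of the ATPases was -0.40 and Psmc5 was not called (-0.55, adjusted p = 0.144). Psmc5 also lost its call in the fit of only these 2 groups (adjusted p = 0.0793) and, with differences of -0.98 to -0.90, without replicate 2 or 3 of dormant WT or replicate 3 of dormant KO.

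The one 19S gene that rose was Psmd13, a lid subunit, at 1.45, 4.03 and 0 TPM in dormant cells of WT hosts, against 15.9, 23.7 and 50.7 TPM in those of KO hosts. The difference was 3.59 ± 0.63 (adjusted p = 0.00146). Growing WT cells had 12.7 to 18.7 TPM and growing KO cells 29.3 to 37.8 TPM, so it was the dormant WT libraries that stood apart. Of the remaining non-ATPases Psmd1 and Psmd2 had standard errors of 1.44 and 1.33, since replicate 2 of dormant WT was near 0 for both.

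Of the activators, Psme1 (PA28 alpha) rose by 1.17 ± 0.34 (adjusted p = 0.0276), from 280.2, 82.0 and 136 TPM in dormant WT to 304, 298 and 393 TPM in dormant KO. The call of Psme1 was lost without replicate 2 (0.75, adjusted p = 0.0525) or 3 of dormant WT and without any 1 of the 3 dormant KO libraries (adjusted p up to 0.101). Psme2 (PA28 beta), its partner in the same ring, differed by 0.12 ± 0.08 (adjusted p = 0.323) and had 994 to 1092 TPM in dormant WT and 1073 to 1212 TPM in dormant KO. Psme2b, an intronless copy of Psme2 whose reads may be shared with it, differed by 0.60 ± 0.18 (adjusted p = 0.0308). Psme3 (PA28 gamma) differed by 1.85, Psme4 by -1.38 and the inhibitor Psmf1 by 2.15, none called, all with a standard error of 0.79 or more. Psmc3ip, the meiotic protein, was at 47.7, 39.8 and 98.7 TPM in dormant cells of WT hosts, against 21.2, 0 and 13.2 TPM in those of KO hosts, a difference of -3.10 ± 0.93 (adjusted p = 0.0302) that lost its call without replicate 3 of dormant WT (-2.71, adjusted p = 0.0774), with median-ratio scaling (-2.66, adjusted p = 0.0695) and with quantile normalization (-2.74, adjusted p = 0.0583).

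**Figure D4:**
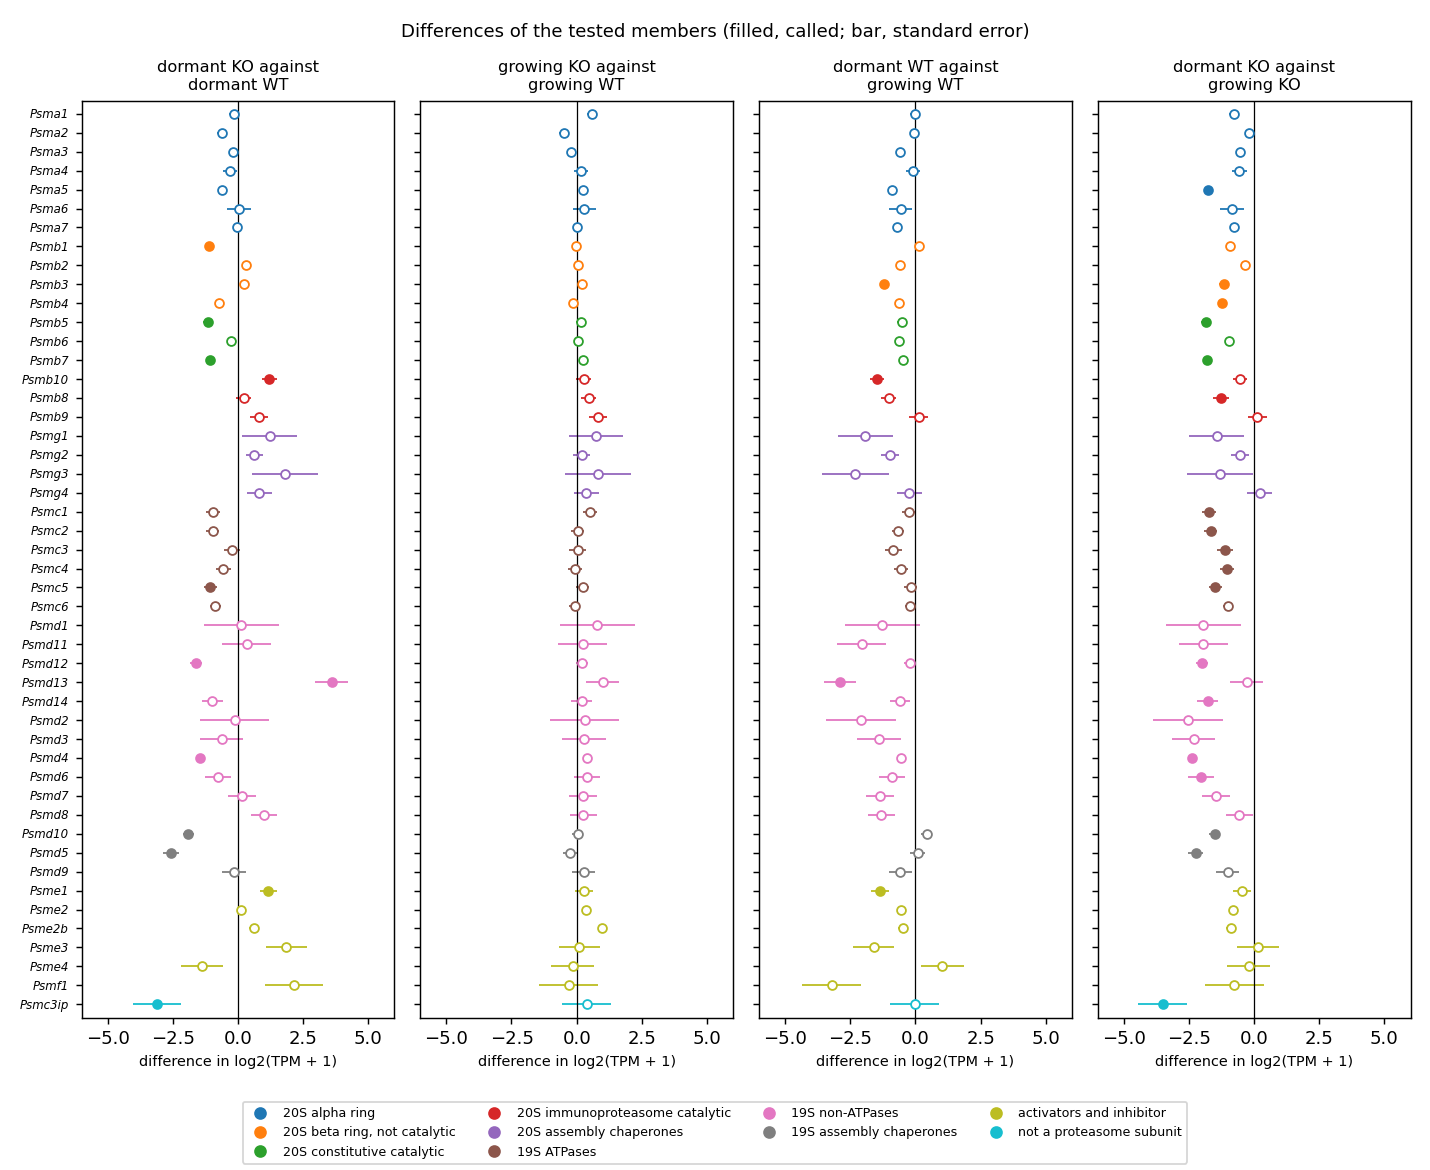
Difference in log2(TPM + 1) of each of the 48 tested members in 4 comparisons, ordered and coloured by role; bars are standard errors and filled points were called. In the left panel 3 members are called higher and 9 lower; in the second none is called; in the third 4 and in the fourth 18 are called, all lower.

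Growing cells from KO hosts were compared with growing cells from WT hosts, and no member was called by limma. The fit takes 1 spread per gene from all 12 libraries. Its p-values here therefore also carry the scatter of the dormant groups. The median SD of a member was larger in those (0.583 in WT and 0.223 in KO) than in the growing groups (0.123 and 0.168). Of the 48 tested, 7 had an unadjusted p below 0.05, 1 passed the adjusted p, and the members' median difference was 0.23 beside 0.02 for all genes. Among all genes 0.715% rose and 0.261% fell. The gene that passed the adjusted p was Psme2b, at 138, 168 and 168 TPM in growing WT and 332, 302 and 309 TPM in growing KO (difference 0.99 ± 0.18, adjusted p = 0.0213). Without overlap between the groups, 20 members were higher in KO hosts, beside 13.3% of all genes, and 3 were lower, beside 10.6%. All 3 immunoproteasome subunits were among the 20: Psmb9 differed by 0.82 ± 0.36 (adjusted p = 0.629), Psmb8 by 0.46 ± 0.29 (adjusted p = 0.956) and Psmb10 by 0.27 ± 0.28 (adjusted p = 1). The constitutive subunit Psmb7 was among the 20 too (0.24 ± 0.16, adjusted p = 0.992), while Psmb5 and Psmb6 overlapped between the groups. Genes of the alpha ring, the ATPases and the non-ATPases were also in the 20. So was Psme2, at 1545 to 1602 TPM in growing WT and 1930 to 2186 TPM in growing KO (difference 0.36 ± 0.08, adjusted p = 0.0824). Markers of other cells were also higher in the growing KO libraries. In this comparison 2 of 8 leukocyte genes were called higher (Fcer1g 3.33 and Cd52 2.58), with 3 of 10 macrophage genes tested (among them C1qb 3.24 and Lyz2 1.45), 2 of 8 alveolar type 2 genes (among them Sftpc 2.65) and 2 of 6 mesothelial genes (among them Upk1b 4.08), and none was called lower.

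Dormant cells of WT hosts were next set against growing cells of the same hosts, to ask what came with the dormant state where the receptor was intact. It shares its dormant libraries with the first comparison and its growing libraries with the second. Of the 48 members 4 fell and none rose, 8.33% lower, beside 5.67% of all genes that fell and 1.85% that rose. The members' median difference was -0.59 and that of all genes -0.35. Of the leukocyte genes 4 of 8 and of the macrophage genes tested 6 of 10 were called higher in the same comparison, among them Fcer1g (6.62), C1qb (6.06) and Lyz2 (4.61). The genes that fell were Psmd13 (-2.89 ± 0.63, adjusted p = 0.0167), Psmb10 (-1.47 ± 0.28, adjusted p = 0.00854), Psme1 (-1.37 ± 0.34, adjusted p = 0.0309) and the beta-ring subunit Psmb3 (-1.21 ± 0.16, adjusted p = 0.000869). Psmb3 had 712, 493 and 423 TPM in the dormant WT libraries, against 1156, 1245 and 1277 TPM in growing cells of WT hosts.

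Psmb8 lay just outside, at -1.03 ± 0.29 (adjusted p = 0.0502), with no overlap between 163 to 414 TPM in dormant and 540.2 to 637 TPM in growing cells. The constitutive subunits Psmb5, Psmb6 and Psmb7 differed by -0.53, -0.64 and -0.48, and of these Psmb6 passed the adjusted p (0.00384). Psmb9 differed by 0.13 (adjusted p = 0.882). The activator Psme2 passed the adjusted p (-0.57 ± 0.08, adjusted p = 0.00178) but not the difference. The call of Psme1 was lost without replicate 2 (-0.95, adjusted p = 0.0411) or 3 of dormant WT and without any 1 of the 3 growing WT libraries (adjusted p up to 0.0986), that of Psmd13 was lost without replicate 2 or 3 of growing WT (adjusted p = 0.0698 and 0.0677), and Psmb8 was called without replicate 1 (-1.19, adjusted p = 0.0281) or 3 (-1.28, adjusted p = 0.0171) of dormant WT. In a fit of only these 2 groups Psmb10 (adjusted p = 0.0777), Psme1 (adjusted p = 0.172) and Psmd13 (adjusted p = 0.104) lost their calls, and with quantile normalization Psmd13 (-2.39, adjusted p = 0.0552) and Psmb3 (-0.99, adjusted p = 0.0058) lost theirs. The count of 4 became 11 without replicate 1 of dormant WT, where the share of all genes that fell also rose from 5.67% to 11.8%, and 2 without replicate 2 or replicate 3 of growing WT, where it dropped to 2.65% and 2.55%.

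In KO hosts the same comparison of dormant with growing cells was made. Of the 48 members 18 fell and none rose (37.5% lower), beside 9.48% of all genes that fell and 8.31% that rose. The members' median difference was -1.08 and that of all genes -0.32. With median-ratio scaling the medians were -0.49 and 0.09 and 8 members fell, beside 5.10% of all genes. In 39 of the 48 members the 3 dormant libraries lay below the 3 growing ones, beside 28.3% of all genes.

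Both Psmb5 (-1.85 ± 0.19, adjusted p = 6.02e-05) and Psmb7 (-1.79 ± 0.16, adjusted p = 2.29e-05) fell, and both were called under the scalings tried. Psmb6 differed by -0.96 ± 0.11 (adjusted p = 9.51e-05), below the difference of 1. Psmb8 fell by 1.27 ± 0.29 (adjusted p = 0.00924), a call lost with median-ratio scaling (-0.67, adjusted p = 0.0978). Psmb10 differed by -0.54 ± 0.28 (adjusted p = 0.214), which turned to 0.05 with median-ratio scaling, and Psmb9 by 0.13 ± 0.36 (adjusted p = 0.855).

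Among the other 20S subunits, Psma5 fell by 1.75 ± 0.15 (adjusted p = 2.29e-05), from 1373 to 1526 TPM in growing KO to 368 to 538 TPM in dormant KO. Psmb4 fell by 1.22 ± 0.15 (adjusted p = 0.00021) and Psmb3 by 1.17 ± 0.16 (adjusted p = 0.000347). Of the 6 ATPases 5 fell, the most Psmc1 (-1.73 ± 0.26, adjusted p = 0.000807) and Psmc2 (-1.67 ± 0.24, adjusted p = 0.000522), and Psmc6 passed the adjusted p (0.00518) but lay just under the difference of 1. With median-ratio scaling the median of the ATPases went from -1.30 to -0.70, so not all 5 calls were kept. Psmc1 had 181, 264 and 107 TPM in the dormant KO libraries, against 518, 633 and 573 TPM in growing cells of KO hosts.

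Of the 11 non-ATPases 4 fell: Psmd4 (-2.38 ± 0.16, adjusted p = 3.27e-06), Psmd6 (-2.05 ± 0.50, adjusted p = 0.0133), Psmd12 (-2.01 ± 0.23, adjusted p = 0.000123) and the deubiquitinase Psmd14 (-1.78 ± 0.40, adjusted p = 0.00838). Psmd4 had 595 to 672 TPM in growing KO and 106 to 134 TPM in dormant KO. The base chaperones Psmd5 (-2.23 ± 0.29, adjusted p = 0.000271) and Psmd10 (-1.50 ± 0.21, adjusted p = 0.000444) also fell. With median-ratio scaling the median of the base chaperones went from -1.50 to -0.91, so not both of these calls were kept. None of the 4 core chaperones and none of the 6 activators and inhibitor was called. Psme2 (-0.81 ± 0.08, adjusted p = 5.95e-05) and Psme2b (-0.88 ± 0.18, adjusted p = 0.00481) passed the adjusted p but not the difference, and neither gene's groups overlapped. Psmc3ip fell by 3.51 ± 0.93 (adjusted p = 0.0199), a call lost without replicate 1 or 3 of growing KO (adjusted p = 0.0733 and 0.0558).

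The 19S and 20S particles were also compared by their summed TPM. The 17 members among the 19S ATPases and non-ATPases came to 19.4, 24.1 and 20.6% of the summed TPM of the 20S rings in the dormant KO libraries, against 39.4, 28.4 and 33.5% in the dormant WT libraries. In growing cells the figure was at most 32.7% in WT hosts and 32.0, 34.7 and 35.2% in KO hosts. The dormant KO libraries lay below all others. As a ratio within a library it does not depend on the scaling factor, and it had no test.

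Averaged over hosts, 16 of the 48 members were called lower in dormant cells and none was called higher (33.3% lower), beside 12.6% of all genes that fell and 6.99% that rose. The 16 include Psmb5 (-1.19 ± 0.13), Psmb7 (-1.14 ± 0.11), Psmb8 (-1.15 ± 0.20), Psmb10 (-1.01 ± 0.20), Psma5 (-1.33 ± 0.11), Psmd4 (-1.46 ± 0.11) and Psmd11 (-2.01 ± 0.66, adjusted p = 0.0481). Psmd3 was also among the 16 (-1.86 ± 0.60, adjusted p = 0.0433), a call lost without 9 of the 12 libraries, left out 1 at a time. This mean over hosts reuses the libraries of the 2 comparisons within hosts and adds no samples. The call of Psmd11 was lost without any 1 of the dormant KO or growing libraries (adjusted p = 0.0697 to 0.0985), that of Psmb8 without replicate 2 of dormant WT (-0.94) and that of Psmb10 without any 1 of 5 libraries (-0.82 without replicate 3 of dormant WT). With median-ratio scaling 2 of the 48 fell, beside 7.10% of all genes: Psmd4 (-1.12, adjusted p = 7.41e-05) and Psmd6 (-1.13, adjusted p = 0.0326).

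The interaction asked whether the dormant-against-growing difference was the same in both hosts. Of the 48 members 9 were called with a lower interaction, that is a more negative difference in KO hosts, and none was called with a higher one (18.8% lower), beside 3.91% of all genes lower and 6.18% higher. They were Psmb5 and Psmb7, the beta subunit Psmb1, the ATPases Psmc1 and Psmc5, the non-ATPases Psmd4 and Psmd12, and the base chaperones Psmd5 and Psmd10. The interaction of Psmb8 was -0.24 ± 0.41 (adjusted p = 0.808), that of Psmb9 -0.01 ± 0.51 (adjusted p = 0.997) and that of Psmb10 0.93 ± 0.39 (adjusted p = 0.175), none called. With median-ratio scaling 4 were called lower (Psmd4, Psmd5, Psmd10 and Psmd12), and Psmb10 (1.45, adjusted p = 0.0392) and Psmd13 (2.98, adjusted p = 0.0478) were called higher.

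Genes that work with the proteasome or belong to it without carrying its name, here called partners, were read from the same fit. Of 13 partners in the table, 4 fell in dormant KO against dormant WT and none rose, beside 9.39% of all genes that fell and 12.9% that rose: the shuttle receptor Ubqln1 (-2.24, adjusted p = 0.0305), the proteasome-bound deubiquitinase Usp14 (-1.75, adjusted p = 0.00268), Zfand5 (-1.71, adjusted p = 0.0245) and the segregase Vcp (-1.35, adjusted p = 0.0197). Against growing KO, 4 of 13 fell, beside 9.48% of all genes, namely Vcp (-1.77, adjusted p = 0.00559), Txnl1 (-1.72, adjusted p = 0.0148), Usp14 (-1.69, adjusted p = 0.0042) and Adrm1 (-1.02, adjusted p = 0.0439). None of the 13 was called in dormant WT against growing WT or between the growing groups, where 0 and 2 had an unadjusted p below 0.05. The core maturation factor Pomp was at 278 to 403 TPM in the dormant and 386 to 472 TPM in the growing libraries and was called nowhere.

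None of the 4 regulators of proteasome genes (Nfe2l1, Nfe2l2, Ddi2, Ngly1) was called in any of the 6 comparisons, where at most 3 had an unadjusted p below 0.05.

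The class I presentation and interferon gamma list held 16 genes in the table, and in dormant KO against dormant WT 1 rose and none fell, a share of 6.25% beside the 12.9% of all genes. This was the transporter gene Tap2, listed at 0 to 0.02 TPM in dormant WT and at 6.96 to 15.1 TPM in dormant KO (difference 3.56, adjusted p = 0.000353). Growing cells had 6.62 to 17.9 TPM, so it was the dormant WT libraries that stood apart: Tap2 was called lower in dormant WT against growing WT (-3.20, adjusted p = 0.00299), differed by -0.17 in dormant KO against growing KO, and had an interaction of 3.04 (adjusted p = 0.019). Tap1, which starts next to Psmb9, reached 11.3 TPM or more in the dormant WT libraries and 12.5, 5.71 and 8.62 TPM in the dormant KO libraries (-1.72, adjusted p = 0.0707), and the groups overlapped at 11.3 and 12.5 TPM. Its interaction was called in the opposite direction (-3.52, adjusted p = 0.0275). B2m, the class I light chain, differed by 0.65 (adjusted p = 0.00151), below the difference of 1, and H2-K1 by -0.19 (adjusted p = 0.532). Between the growing groups none of the 16 was called and 4 had an unadjusted p below 0.05.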

How the data were processed

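RNA sequencing libraries of 50 sorted cells were analysed from 12 samples, 3 in each of 4 groups taken from the labels. The authors deposited a gene table in TPM (length-corrected transcript shares scaled to 1000000) made with RSEM after alignment with STAR. The submitters' processing notes name bcl2fastq 2.20, cutadapt 1.18, STAR 2.5.2b, RSEM 1.3.3, DESeq2 and the mm10 build, and the methods name GENCODE M12. Columns sum to that total in every library, so read depth is unknown and no counting interval is given. Between 11325 and 15315 genes were above 0 per library. A further 30 columns of the table matched no sample here and were not used.

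TPM values were taken as log2(TPM + 1) and fitted with limma 3.58.1 (R 4.3.3; group means over all 12 libraries, trended variances, 8 residual degrees of freedom) for 13002 genes that reached 1 TPM in 3 libraries or more. P-values are two-sided with Benjamini-Hochberg adjustment over all genes tested, and a gene was called at an adjusted p of at most 0.05 and a difference of at least 1. The authors used DESeq2 with the same thresholds on counts, which TPM values cannot replace. The fitting code was tested on simulated data. The study describes these data as biological triplicates with 3 mice per group; the labels do not tie a library to a mouse.

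The members, gene lists, comparisons and the rule for named genes were chosen with earlier results of these data known. Named with values were the 6 catalytic subunits, the activators and inhibitor, Psma8, Psmb11, Psmc3ip, members called in the interaction and, in each other role, up to 3 called members with the largest differences per comparison. Examples named outside this rule (Psmg1, Psmg3, Psmd1, Psmd2, Psmd14, Psmc6, Psma2, Psma6, Psma7, Psmd9, Pomp, Tap1, B2m, H2-K1) were chosen after their values were seen. Some genes that work with the proteasome are not reported here. Ecpas and Paaf1 of the partner list and the neutrophil marker Retnlg matched no name in the table. Gene positions and exons were read from GENCODE M21 and promoter windows from RefSeq (GRCm38.p6, the assembly mm10 represents). Alternatives were other pseudocounts (0.1, 5), no filter and a stricter one (TPM of at least 5), median-ratio scaling over 5729 genes above 0 in all libraries, quantile normalization, array weights, fits restricted to the libraries being compared, the replicate number as a block, other thresholds, and leaving out each library.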

Additional observations from a re-analysis of the deposited data

Results flagged for a closer look

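The difference between dormant and growing cells itself differed between KO and WT hosts for 9 members, by the interaction term of the limma fit (the KO-host difference less the WT-host difference, log2 scale). It was -2.32 for Psmd5 (adjusted p = 0.0045), -1.94 for Psmd10 (adjusted p = 0.00213), -1.84 for Psmd4 (adjusted p = 0.000564), -1.79 for Psmd12 (adjusted p = 0.00512), -1.48 for Psmc1 (adjusted p = 0.0272), -1.32 for Psmb5 (adjusted p = 0.00907), -1.31 for Psmb7 (adjusted p = 0.00372), -1.30 for Psmc5 (adjusted p = 0.0344) and -1.09 for Psmb1 (adjusted p = 0.00258). In WT hosts the dormant-against-growing difference of these genes ran from -0.54 for Psmd4 to 0.44 for Psmd10, and none was called. In KO hosts it ran from -2.38 for Psmd4 to -0.93 for Psmb1, and 8 of the 9 were called, Psmb1 missing the difference of 1.

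The interaction of Psmc5 lost its call without 9 of the 12 libraries, left out 1 at a time, with values of -1.39 to -1.14, and that of Psmc1 without 6 (-1.53 to -1.41). The adjusted p of Psmc5 in those 9 fits ran from 0.0508 to 0.0936. With median-ratio scaling only Psmd4, Psmd5, Psmd10 and Psmd12 kept the interaction call. The 3 dormant KO libraries that give the differences in KO hosts are those with the low Spp1 (1236 to 1509 TPM) and the high alveolar type 2 sum (40072 to 42411 TPM), and the part of those cells in the 9 values was not tested.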

How the results depend on the processing

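The counts of called members moved with scaling, with the threshold and with single libraries. With median-ratio scaling, 8 members rose and 3 fell in dormant KO against dormant WT (beside 17.6% and 6.18% of all genes), 8 fell in dormant KO against growing KO (5.10%), 2 fell in the mean over hosts (7.10%), and the interaction gave 2 higher and 4 lower (8.69% and 2.30%), while the summed TPM was 12483 in dormant WT, 14581 in dormant KO, 17243 in growing WT and 19558 in growing KO. With quantile normalization, 5 fell in dormant KO against dormant WT (11.6% of all genes), 2 in dormant WT against growing WT (3.68%) and 5 in the mean over hosts (9.01%). The share of called genes that were higher, over all genes, moved from 57.9 to 74.0% in dormant KO against dormant WT, from 46.7 to 69.2% in dormant KO against growing KO and from 61.2 to 79.1% in the interaction with median-ratio scaling, and from 24.6 to 50.6% in dormant WT against growing WT and from 35.7 to 53.9% in the mean over hosts with quantile normalization. Fits restricted to the libraries being compared left 1 higher in dormant KO against dormant WT (8.61% of all genes) and 1 lower in dormant WT against growing WT (5.78%), and could not be made for the mean over hosts and the interaction. By the adjusted p alone, 15 fell in dormant KO against dormant WT (10.2% of all genes), 1 rose between the growing groups (0.738%), 11 fell in dormant WT against growing WT (6.51%) and 32 in the mean over hosts (15.9%); with a difference of at least 1.5-fold added these were 15, 1, 10 and 28, beside shares of all genes no higher than those just given. Beyond what their construction implies, the cause of these shifts was not tested.

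Leaving out 1 library at a time gave 2 to 6 members higher and 8 to 13 lower in dormant KO against dormant WT (6 without replicate 1 of dormant WT), beside 9.58 to 17.2% and 7.66 to 13.4% of all genes. It gave 0 to 1 higher and 2 to 11 lower in dormant WT against growing WT (0.91 to 3.22% and 2.55 to 11.8% of all genes), 16 to 23 lower in dormant KO against growing KO (6.78 to 14.2%), 13 to 20 lower in the mean over hosts (9.22 to 18.2%), and 0 to 2 higher and 7 to 13 lower in the interaction (3.83 to 9.46% and 2.60 to 6.45%). No library left out gave a call between the growing groups.

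Reversals concerned uncalled differences. With median-ratio scaling, Psmb6 turned to 0.25 in dormant KO against dormant WT, Psmb10 to 0.05 and Psme1 to 0.12 in dormant KO against growing KO, and the interactions of Psmb6 to 0.20, Psmb8 to 0.28, Psmb9 to 0.51, Psme2 to 0.28 and Psme2b to 0.12. The interaction of Psmb9 was 0.46 with quantile normalization and 0.07 with array weights, and -0.46 to 0.23 with 1 library left out. That of Psmb8 was -0.65 to 0.02 with 1 library left out. Psmb8 in dormant KO against dormant WT ranged from -0.19 to 0.48, Psmb6 between the growing groups from 0.00 to 0.11, and Psmb9 in dormant WT against growing WT from -0.10 to 0.58. Of 2104 values of single genes under the alternatives, 1906 kept direction and call, 144 lost a call, 32 gained one and 22 reversed.

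The deviations of same-numbered replicates had correlations of -0.0147 to 0.0206 over the genes tested. The labels do not tie a library to a mouse, so these values cannot tell whether the numbers pair the libraries. With the replicate number as a block, 3 members rose and 9 fell in dormant KO against dormant WT, 18 fell in dormant KO against growing KO and 15 in place of 16 fell in the mean over hosts, where Psmd11 lost its call (adjusted p = 0.0616). Depth is unknown, so a value of 0 for a low gene such as Psmf1 or Psmd13 in a 50-cell library cannot be given a limit.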
